A study of Mus musculus with 2 samples.

Results

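The CC chemokine genes described here were Ccl2, Ccl3, Ccl4, Ccl5, Ccl6, Ccl7, Ccl9, Ccl12, Ccl17 and Ccl22. The 10 genes were selected by gene symbol in the deposited transcript tables and linked to the gene tables by gene identifier, which gave 10 of 55536 named genes. RNA of the nucleoplasmic fraction, which is nuclear RNA not held in chromatin, was sequenced after removal of ribosomal RNA. It came from macrophages grown from C57BL/6J mouse bone marrow. One label field gives the fraction only as nucleus. Both libraries came from cells given Lipid A, the part of bacterial lipopolysaccharide that Tlr4 senses, at 100 ng/ml for 120 min. The labels name no genetic change, and they give 1 donor entry and separate biosample entries for biological replicates 1 and 2. The replicates form a single group, and their RNA inputs were 1 µg and 500 ng, so input and replicate cannot be told apart. Untreated cells were not analysed here. The levels say how much RNA was present and nothing of how far Lipid A raised it, and there were no groups to test against each other.

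CC chemokines are small secreted proteins that carry a pair of adjacent cysteines and guide leukocytes through G protein-coupled receptors. Macrophages transcribe many of them after Toll-like receptor signalling, through NF-kB and interferon regulatory factors. In the mouse genome most of these genes sit in tandem groups on chromosome 11, named after the monocyte chemoattractant proteins (MCP) and the macrophage inflammatory proteins (MIP), while Ccl22 and Ccl17 are neighbours on chromosome 8. RNA of the nucleoplasmic fraction can hold partly spliced transcripts besides finished ones, so both the level of each gene and the form of its transcripts were examined.

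The stretch that names the family is shown first, for the 3 pairs of members with the closest coding sequences. Each run is 42 coding bases from the GENCODE M21 transcripts (mm10), with the codons of the adjacent cysteines in capitals. Ccl3 and Ccl4 were identical at 68.4% of positions of the coding alignment, Ccl9 and Ccl6 at 64.8%, and Ccl7 and Ccl12 at 63.5%. Gap positions count as not identical.
Ccl3 (chr11:83648634-83648675, minus strand): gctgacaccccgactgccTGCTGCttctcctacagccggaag
Ccl4 (chr11:83663464-83663505, plus strand): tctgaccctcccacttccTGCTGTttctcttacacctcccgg
Ccl9 (chr11:83575908-83575949, minus strand): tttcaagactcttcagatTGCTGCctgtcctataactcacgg
Ccl6 (chr11:83589368-83589409, minus strand): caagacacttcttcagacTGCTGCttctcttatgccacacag
Ccl7 (chr11:82046520-82046561, plus strand): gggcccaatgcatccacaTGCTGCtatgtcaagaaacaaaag
Ccl12 (chr11:82102616-82102657, plus strand): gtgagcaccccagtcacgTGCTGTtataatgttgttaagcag
Each of the 10 coding sequences held 1 such codon pair. Over all pairs of members the median coding identity was 49.9% within a group (14 pairs) and 49.6% between groups (31 pairs). Because gaps count, unlike lengths lower these values. The coding sequence of Ccl2 has 447 bases and that of Ccl7 has 294, and their identity was 46.6%. No stretch of 31 bases was shared between transcripts of different members, so reads of that length within these transcripts can be told apart among members. Stretches of that length shared with transcripts of other genes made up 4.03% of those of Ccl9-201, 1.28% of those of Ccl6-201 and 5 of 638 in Ccl5-202, and 14 of the 17 annotated member transcripts had none.

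The second set of sequences shows the exon edges on which the transcript forms of Ccl5 and Ccl2 differ. In the forms numbered 202, annotated as retained intron, the exon runs on into the second intron, whose bases are in capitals. In the spliced forms numbered 201 the capitals mark the first 30 bases of the next exon.
Ccl5-202 (chr11:83529096-83529185, minus strand): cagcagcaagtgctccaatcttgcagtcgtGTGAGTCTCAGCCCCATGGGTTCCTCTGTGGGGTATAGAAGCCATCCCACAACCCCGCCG
Ccl5-201 (chr11:83526035-83529185, minus strand, intron removed): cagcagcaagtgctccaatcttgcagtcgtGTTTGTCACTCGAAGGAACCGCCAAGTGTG
Ccl2-202 (chr11:82036571-82036660, plus strand): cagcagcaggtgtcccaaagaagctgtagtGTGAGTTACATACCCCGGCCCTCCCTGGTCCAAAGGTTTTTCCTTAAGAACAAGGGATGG
Ccl2-201 (chr11:82036571-82036955, plus strand, intron removed): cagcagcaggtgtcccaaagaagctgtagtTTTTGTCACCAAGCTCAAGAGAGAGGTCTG
Ccl5-202 carries the first 428 bases of a 3091-base intron and stops there, without the last exon. Ccl2-202 carries all 325 bases of its intron and continues into the last exon.

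Depth was 14374739 estimated counts in the gene table of replicate 1 and 16372797 in that of replicate 2. The libraries differed beyond depth. Mitochondrial genes took 0.424% of counts in replicate 1 and 8.70% in replicate 2, and 11 stromal markers (collagens, Sparc, Dcn, Lum, Pdgfra, Pdgfrb and Thy1) had 5208 and 28 counts in all. All 10 macrophage markers reached 1 TPM (a level per length, scaled to one total in each library) in both libraries, and their summed level was 1049 and 2274 TPM. The nuclear RNAs Malat1 and Neat1 stood at a summed 40447 and 25147 TPM.

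Of the 10 members, 9 were detected, that is, they reached 1 TPM in both libraries, beside 40.4% of nuclear-encoded protein-coding genes. Together the 10 genes held 18190 counts in replicate 1, or 0.128% of the counts of named genes (95% Wilson interval 0.127% to 0.130%), and 30854 counts in replicate 2, or 0.189% (0.187% to 0.191%). The mean was 0.159% ± 0.0428 (SD, n = 2, here and below). The intervals cover counting error only and did not overlap, so the libraries differed by more than counting error. In bulk RNA, fewer cells that express a gene and less RNA per cell cannot be told apart.

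Genes for attractants of T cells, monocytes and natural killer cells stood highest. Ccl5 (chr11:83525778-83530518, minus strand, mm10 as for all positions) was at 794 TPM in replicate 1 and 774 TPM in replicate 2 (784 ± 14.0), from 4678 and 6514 counts. It ranked 25 and 18 among protein-coding genes. The deposited posterior mean levels of Ccl5 were 732 TPM with bounds of 711 and 754 in replicate 1, and 733 TPM with bounds of 715 and 751 in replicate 2. The confidence level of these bounds is not given in the sources used here. Both libraries gave Ccl5 nearly equal TPM, but TPM shifted between them as a whole. Rescaled over nuclear-encoded protein-coding genes, Ccl5 was at 2671 and 3717 TPM. Ccl4 (chr11:83662584-83664683, plus strand) followed at 567 and 530 TPM (549 ± 26.3), from 3542 and 4991 counts. Ccl3 (chr11:83647844-83649355, minus strand), whose product binds Ccr1, was at 344 and 408 TPM (376 ± 45.0), from 2664 and 4760 counts. These 3 genes kept their order in both libraries without overlap of their levels.

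The monocyte chemoattractants, which act through Ccr2, were in the middle of the range. Ccl7 (chr11:82045712-82047525, plus strand) was at 230 and 367 TPM (298 ± 97.0), from 1891 and 4554 counts. Ccl2 (chr11:82035571-82037453, plus strand) was at 213 and 267 TPM (240 ± 37.8), from 2095 and 3787 counts. Ccl12 (chr11:82101845-82103400, plus strand) was far lower at 23.6 and 33.0 TPM (28.3 ± 6.67), from 105 and 223 counts. Each of these 3 genes had the higher level in replicate 2, and Ccl7 was above Ccl2 in each library although their levels overlapped across libraries.

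Ccl9 and Ccl6, adjacent genes for ligands of Ccr1 in myeloid cells, were apart from each other in level. Ccl9 (chr11:83572919-83578636, minus strand) was at 75.9 and 91.8 TPM (83.8 ± 11.3), from 2979 and 5393 counts. Ccl6 (chr11:83587882-83593087, minus strand) was at 14.5 and 30 TPM (22.2 ± 11.0), from 176 and 511 counts. Ccl9 had more counts than Ccl2 at a lower TPM; its coding transcript has 3006 bases and that of Ccl2 has 813.

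The Ccr4 ligands, known from dendritic cells and from macrophages under other stimuli, were lowest. Ccl22 (chr8:94745590-94751699, plus strand) was at 2.13 and 2.85 TPM (2.49 ± 0.509), from 60 and 121 counts. Ccl17 (chr8:94810453-94812036, plus strand) was listed at 0 counts in both gene tables, which allows up to 3 counts, or 0.716 TPM in replicate 1 and 0.475 TPM in replicate 2. A separate transcript table that was made directly from reads, called read-based here, gave Ccl17 10 estimated counts (1.248 TPM) in replicate 1 and 0 in replicate 2. Ccl17 was therefore not detectable at this depth in the gene tables.

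**Figure D1:**
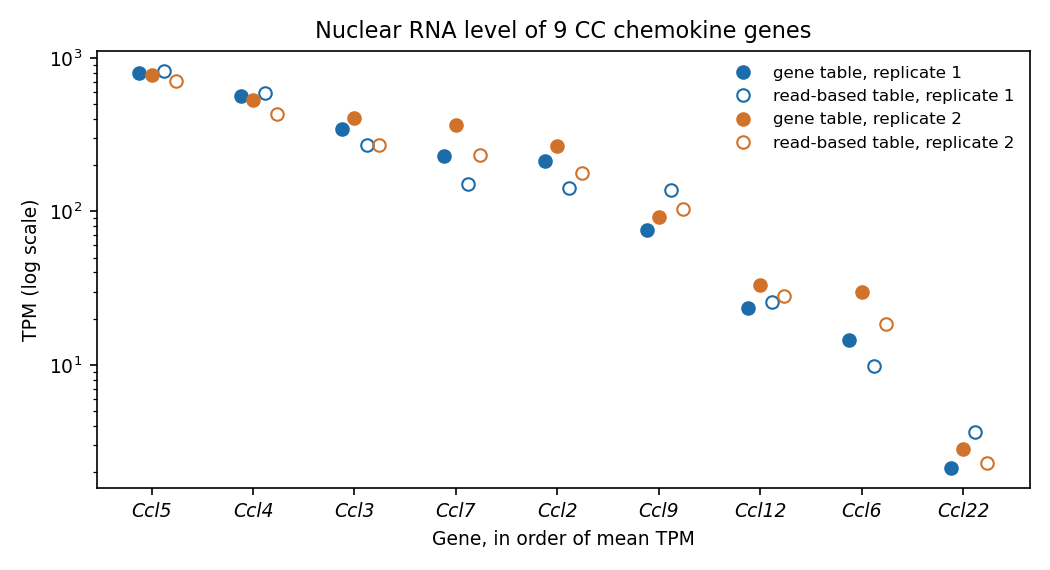
Level in TPM (log axis) of the 9 detected CC chemokine genes in replicate 1 and replicate 2, in order of mean level, with filled points from the gene tables and open points from the read-based table. Filled points run from Ccl5 at 794 and 774 TPM down to Ccl22 at 2.13 and 2.85 TPM; Ccl17, listed at 0, is not drawn.

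All 9 neighbouring pairs in the order of mean level (Ccl5, Ccl4, Ccl3, Ccl7, Ccl2, Ccl9, Ccl12, Ccl6, Ccl22, Ccl17) had the same order in each library and in the read-based table. In 3 pairs the TPM of the neighbours overlapped across libraries, namely Ccl3 with Ccl7, Ccl7 with Ccl2, and Ccl12 with Ccl6. The bounds of the posterior mean levels also overlapped for Ccl12 (27.5 to 35.7 TPM) and Ccl6 (25.7 to 31.8 TPM) in replicate 2. They overlapped as well for Ccl7 (202 to 221 TPM) and Ccl2 (188 to 205 TPM) in replicate 1. The widest step between detected neighbours was from Ccl6 to Ccl22, with a TPM ratio of 6.80 in replicate 1 and 10.5 in replicate 2.

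By position, the MIP group spans 138.906 kb on chromosome 11 (chr11:83525778-83664683) and holds Ccl5, Ccl9, Ccl6, Ccl3 and Ccl4. It took 77.2% of the members' counts in replicate 1 and 71.9% in replicate 2, and its summed level was 1797 and 1834 TPM. The MCP group spans 67.83 kb (chr11:82035571-82103400), 1422.38 kb away, and holds Ccl2, Ccl7 and Ccl12. Its part was 22.5% and 27.8% of the members' counts, with a summed level of 466.5 and 666.5 TPM. Ccl22 and Ccl17 lie within 66.447 kb of chromosome 8 (chr8:94745590-94812036) and took 0.330% and 0.392%. The MCP group thus had the larger share in replicate 2 and the MIP group the smaller one.

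In the MIP group the lower genes Ccl6 and Ccl9 lie between Ccl5 at one end and Ccl3 with Ccl4 at the other. In the MCP group Ccl11, the gene of an eosinophil attractant, lies between Ccl7 and Ccl12 and had 6 and 3 counts (0.490 and 0.160 TPM). In the MIP group the most counted gene that is not a member was the noncoding E230016K23Rik, with 6 and 3 counts (0.510 and 0.170 TPM). Between Ccl22 and Ccl17 it was Cx3cl1, which encodes the membrane-bound chemokine fractalkine, with 26 and 24 counts (0.850 and 0.360 TPM). None of the 6 annotated genes that overlap the 3 spans and are not members reached 1 TPM in the gene table of either library. E230016K23Rik overlaps Ccl6 on the opposite strand, and Gm17268 overlaps Ccl2 in the same way with 0 counts in both gene tables. The read-based table gave more estimated counts, 112 and 122 for E230016K23Rik and 19 and 13 for Gm17268. Ccl6 had 216 and 714 there. E230016K23Rik and Gm17268 share no exon base with the members, and whether counting used strand is not given in the sources used here.

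**Figure D2:**
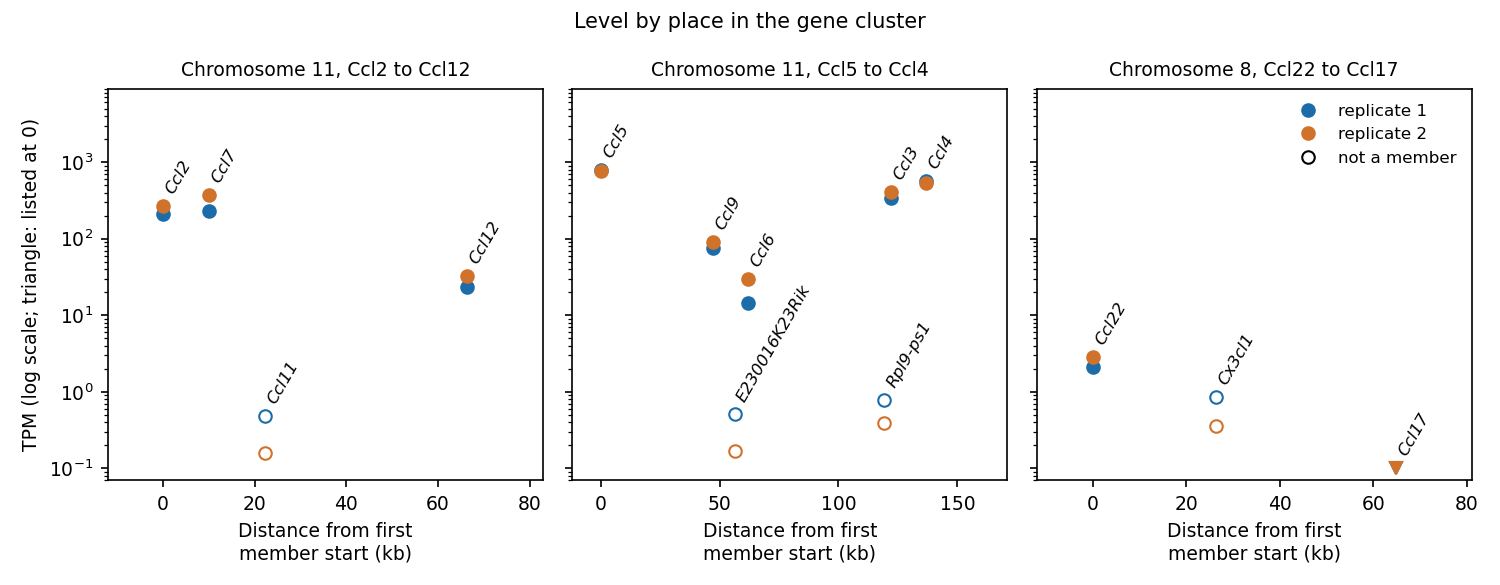
Level in TPM (log axis) in each library against distance in kb from the start of the first member of each group, with filled points for members, open points for other annotated genes with a count, and triangles at the bottom for a gene listed at 0. The 8 members on chromosome 11 lie at 14.5 TPM (Ccl6 in replicate 1) or more, the open points lie under 1 TPM, and Ccl17 is the triangle.

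More than 50% of the TPM of Ccl5 was of an intron-containing form in both libraries. Of the TPM of Ccl5, the retained-intron form Ccl5-202 took 75.7% in replicate 1 and 59.4% in replicate 2 (67.5% ± 11.5). In levels, Ccl5-202 was at 601 and 460 TPM and the spliced coding form Ccl5-201 at 193 and 315 TPM. The read-based table gave retained-intron shares of 72.1% and 61.8%, and the share of expected counts was 81.6% and 67.6%. In each of these measures the intron-containing form outweighed the coding form in both libraries. As annotated, Ccl5-202 ends after the first 428 bases of the 3091-base intron, so its share does not show that the whole intron was kept. The tables do not tell a finished RNA that keeps intron bases from one that has yet to lose them or one that ends inside the intron.

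Ccl2 had the opposite balance. Its retained-intron form Ccl2-202 took 36.1% of TPM in replicate 1 and 25.7% in replicate 2 (30.9% ± 7.32), at 76.9 and 68.6 TPM. The coding form Ccl2-201 was at 136 and 198 TPM. By expected counts the retained-intron share of Ccl2 was 45.4% and 33.8%. The coding form thus led in both libraries.

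Ccl6 has a coding form and 2 retained-intron forms. The latter took 52.2% of TPM in replicate 1 and 62.2% in replicate 2 (57.2% ± 7.11). Nearly all of this was Ccl6-202 at 6.93 and 17.95 TPM, while Ccl6-201 was at 6.93 and 11.3 TPM. Ccl6-202 contains only 71 intronic bases beside 705 bases shared with the coding form, and it is shorter. By expected counts the retained-intron share of Ccl6 was 32.1% and 42.4%, below that of the coding form, so which form of Ccl6 leads depends on the division by length.

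A wider set served for comparison, the 3788 protein-coding genes with a retained-intron transcript and a level of at least 5 TPM in each library. Their retained-intron shares had a median of 39.3% in replicate 1 and 33.0% in replicate 2. Ccl5 lay at percentile 95.4 and 85.9 of these genes, Ccl6 at 71.4 and 88.6, and Ccl2 at 44.6 and 38.2. By share of expected counts Ccl2 was instead above the median gene, at percentile 74.1 and 68.6, against medians of 24.6% and 19.6%. Shares above 50% in both libraries were found for 2 of these 3 members, Ccl5 and Ccl6, and for 21.9% of the 3788 genes. The share was lower in replicate 2 for 2 of the 3 members and for 72.3% of the 3788 genes, whose median change was -4.78 points. The change was -16.3 points for Ccl5 and -10.4 points for Ccl2. For Ccl6 it was 10.1 points, in the other direction, but its read-based shares were nearly equal at 61.9% and 62.5%. The RNA input and the mitochondrial share differed between the same libraries, and their part in these changes was not tested.

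**Figure D3:**
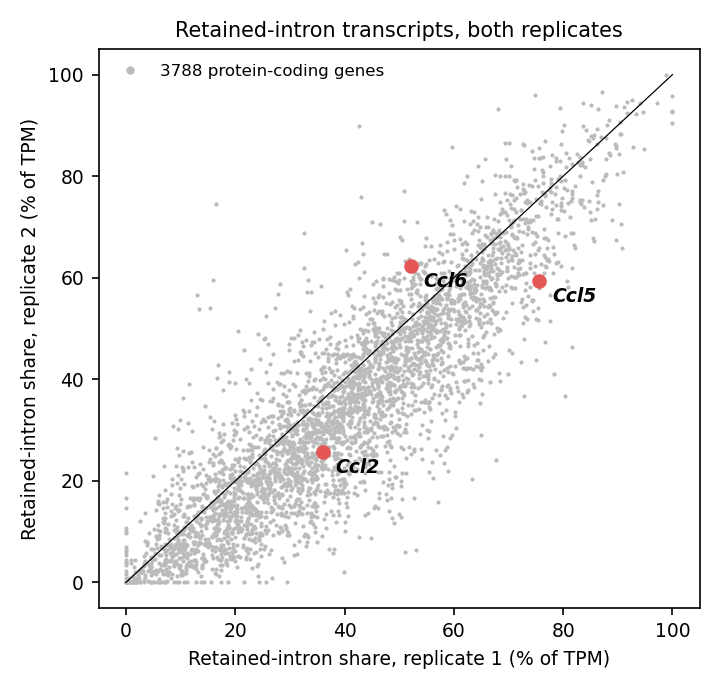
Retained-intron share of TPM in percent in replicate 2 against replicate 1, with 1 grey point per gene for the 3788 protein-coding genes, larger points for Ccl5, Ccl2 and Ccl6, and a line of equal shares. Ccl5 (75.7% and 59.4%) and Ccl2 (36.1% and 25.7%) lie below the line with most genes, and Ccl6 (52.2% and 62.2%) lies above it.

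Taking only the coding transcripts changes the order at the top. Ccl4 (567 and 530 TPM), Ccl3 (344 and 408 TPM) and Ccl7 (230 and 367 TPM) then stood above Ccl5-201 (193 and 315 TPM) in both libraries. In the read-based table Ccl5-201 was at 231 and 270.0 TPM, above Ccl7 at 150 and 234 TPM, and in replicate 2 it was level with Ccl3 (269.7 TPM). The place of the coding form of Ccl5 relative to Ccl7 and Ccl3 therefore depends on the table. Ccl3, Ccl4, Ccl7 and Ccl17 have 1 annotated transcript each, and reads from their introns have no transcript to be assigned to. Their levels can therefore not be divided between a coding and an intron-containing form as that of Ccl5 was. For Ccl5 too the division is partial. Ccl5-202 holds only 428 of the 4209 intron bases of the coding form, and it lacks the last exon. The level of Ccl5-201 may therefore still include unspliced RNA.

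For Ccl9, Ccl22 and Ccl12 the tables differed on the transcript. In the table from the transcriptome alignment Ccl9-201, the coding form, took 100% and 99.1% of the TPM of Ccl9, while in the read-based table it took 30% and 50.8%. The rest went to Ccl9-202, which differs from the coding form by 39 bases of 398. Ccl22-201 took 100% in both libraries in the first table and 50.3% and 85.6% in the read-based one, where Ccl22-202 rested on 9.48 and 3.58 estimated counts. Ccl12-201 took 92.4% and 96.0%, against 75.7% and 84.3% in the read-based table, and Ccl12-202 lies wholly within it. Ccl9-202 and Ccl12-202 therefore have few or no bases that the coding form lacks.

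**Figure D4:**
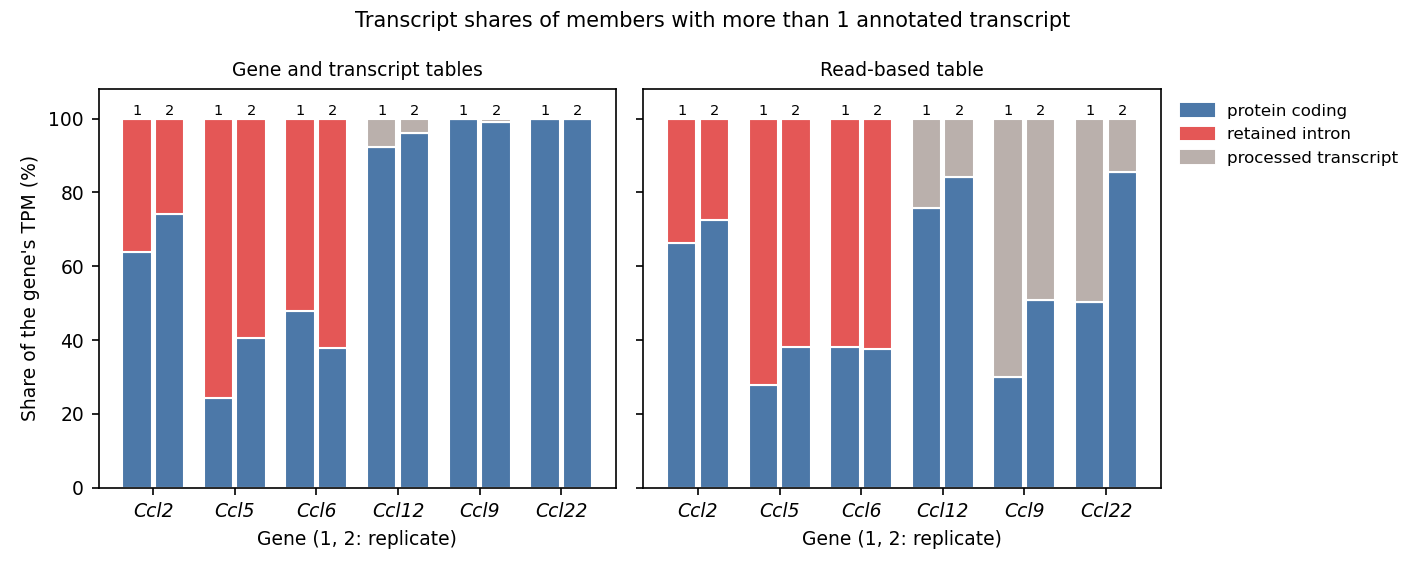
Share of each gene's TPM in percent by annotated transcript class (protein coding, retained intron, processed transcript) for the 6 members with more than 1 transcript, as stacked bars for replicates 1 and 2, with the table from the transcriptome alignment on the left and the read-based table on the right. The retained-intron share of Ccl5 is above 50% in both panels, while the coding share of Ccl9 drops from 100% and 99.1% to 30% and 50.8%.

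Relative to the median gene, the detected members stood higher in replicate 2 than in replicate 1. The ratio was taken as log2 of (TPM + 1) in replicate 2 over replicate 1, from which the median over the 12655 genes averaging at least 1 TPM (-0.58) was subtracted. All 9 detected members were above 0, as were 55.7% of the 9556 protein-coding genes at that level. Their median was 0.88 (0.49 for Ccl4 to 1.58 for Ccl6), against 0.06 over the protein-coding genes, whose SD was 0.56. Above 1 were 3 members, Ccl6 (1.58), Ccl7 (1.26) and Ccl12 (1.05), beside 5.46% of protein-coding genes. These ratios compare 2 libraries and have no replicate check.

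Between the transcript forms the ratios were unequal. For Ccl5 the coding form had a relative log2 ratio of 1.28 and the retained-intron form 0.20. For Ccl2 they were 1.12 and 0.42. Over the protein-coding genes with a retained-intron transcript and at least 5 TPM in each library, the medians were 0.12 for coding and -0.18 for retained-intron forms. That is the same direction as for Ccl5 and Ccl2. Ccl6-202 (1.84) against Ccl6-201 (1.22) ran opposite. In the read-based table it did not, as both forms rose to a like degree. There Ccl6-202 was at 5.55 and 10.7 TPM and Ccl6-201 at 3.74 and 6.97 TPM. With read-based TPM the median over the 9 members was 0.62, and the lowest values were those of Ccl22 (0.13), Ccl4 (0.16) and Ccl9 (0.23).

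**Figure D5:**
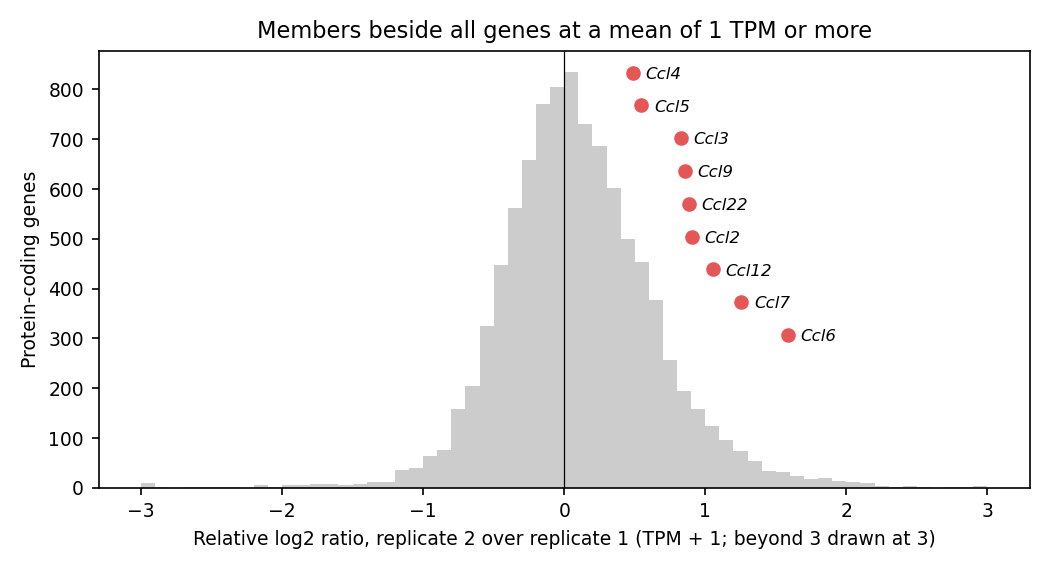
Distribution of the relative log2 ratio of replicate 2 over replicate 1 over 9556 protein-coding genes (histogram), with the 9 detected members marked at their own ratios. Heights of the marks serve only to keep the names apart, and all marks lie between 0.49 (Ccl4) and 1.58 (Ccl6).

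Macrophage markers differed in the same direction, with 8 of 10 higher in replicate 2 relative to the same median and a median of 1.09. For protein-coding genes averaging at least 1 TPM the share was 55.7% and the median 0.06. The 7 mitochondrial markers had a median of 5.27, and the 7 stromal markers that averaged at least 1 TPM were all lower. The part of these shifts in the members' ratios was not tested. Of other cell types that can make CC chemokines, dendritic cells had 3 of 10 markers detected, with Cd209a at 0. Their summed level was 67.0 and 73.2 TPM, mostly Cd74 and H2-Ab1. Of 7 T cell markers 1 was detected, Lck at 4.74 and 5.24 TPM, with Cd3e and Cd3g at 0 in the gene tables. The 7 stood at a summed 9.63 and 5.58 TPM, and Cd5 was at 4.68 and 0.29 TPM. In the read-based table Cd3d, with 0 and 1 counts in the gene tables, was at 8.21 and 7.28 TPM. Neutrophil, B cell and mast cell and basophil markers had none detected, at a summed level of at most 5.11 TPM, and the neutrophil marker Ly6g was at 0. Of 5 endothelial markers 1 was detected, Kdr at 7.52 and 4.84 TPM, with Cldn5 at 0. The 5 stood at a summed 9.31 and 5.43 TPM. Pecam1 was at 1.16 and 0.48 TPM in the gene tables but at 11.4 and 14.0 TPM in the read-based table.

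Most other CC chemokine genes were near or at 0. Of 11 other CC chemokine genes, 2 reached 1 TPM in both libraries and 4 were at 0 in both. Ccl8, a further monocyte chemoattractant of the same region of chromosome 11, was at 9.40 and 9.12 TPM from 39 and 57 counts. Ccl25, best known from thymus and gut, was at 7.43 and 7.70 TPM from 216 and 348 counts. Both were below Ccl6, the lowest member detected on chromosome 11, in each library of the gene tables. In the read-based table Ccl8 (11.9 TPM) was above Ccl6 (9.82 TPM) in replicate 1.

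Among 14 genes listed as CC chemokine receptors or related to them, Ccrl2, an atypical receptor that does not signal in the usual way, was at 46.9 and 70.7 TPM. Ccr1, the receptor for Ccl3, Ccl5, Ccl6 and Ccl9, was at 10.1 and 21.8 TPM. Both were higher in replicate 2 relative to the median gene, with relative log2 ratios of 1.16 for Ccrl2 and 1.62 for Ccr1.

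Regulators of chemokine transcription and mRNA decay were all detected (22 of 22). The highest by mean level were Irf1 at 818 and 352 TPM, Nfkb1, which encodes an NF-kB subunit, at 383 and 164 TPM, and Irf8 at 327 and 152 TPM, although Irf7 (262 and 181 TPM) was above Nfkb1 and Irf8 in replicate 2. In contrast to the members, 6 of 22 were higher in replicate 2 relative to the median gene, with a list median of -0.26. Of protein-coding genes averaging at least 1 TPM, 55.7% were higher, with a median of 0.06.

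The members have few exons. The coding transcripts of 8 members have 3 exons and those of Ccl9 and Ccl6 have 4, against a median of 9 exons over 8879 detected protein-coding genes. Motifs of mRNA decay were counted in the 3′ UTRs as ATTTA on the transcript strand. Ccl12 had 5 in 167 bases and Ccl3 had 5 in 409 bases, numbers reached by 0.461% and 1.20% of UTRs of like length. Ccl5 and Ccl17 had none, which says only that these letters are not there. Of UTRs of like length, 25.0% for Ccl5 and 22.7% for Ccl17 held any. The remaining members had 1 to 5, numbers reached by 12.3% (Ccl4) to 70.7% (Ccl22) of UTRs of like length.

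Promoter windows of 300 bases (RefSeq, GRCm38.p6) were matched for 6 of the 10 members, Ccl12, Ccl9, Ccl6, Ccl3, Ccl22 and Ccl17, and searched on both strands. The kappa B form (GGGA, any 4 bases, CC) was present once, in Ccl22, and 20.7% of 32851 promoters hold it. TATAAA was found in Ccl12 and in Ccl9 (13.6% of promoters), and the AP-1 form TGANTCA in Ccl9 (7.81%). The interferon response form (GAAA, any 2 bases, GAAA) was in none of the 6 (3.44%). A match is a description of the letters, and no match says nothing about the factor.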

How the data were processed

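Ribosomal RNA-depleted nucleoplasmic RNA of 2 libraries was quantified by the authors with gene and transcript tables from a transcriptome alignment and a transcript table from the read files, on mm10 with annotation M21, per the labels' accompanying notes. Aligner, quantifiers, versions and strand use were not given in the sources used here, and the column names are of the kind made by RSEM and kallisto. The deposited values named expected counts are estimates for a gene or transcript and need not be whole. The deposited TPM are scaled to one total per table, and the deposited FPKM served only as an alternative. The deposited isoform shares are in percent of a gene's TPM. TPM and counts weigh gene classes differently: in the 2 libraries 72.6% and 67.1% of counts, but only 29.7% and 20.8% of TPM, fell to protein-coding genes. Entries without a gene name (1.41% and 0.245% of counts) were left out. Where a count was 0, up to 3 were allowed for; read-based totals were 20813687 and 27466816.

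Both replicates form 1 group, so values are given per library with mean and SD. Scaling alternatives used edgeR 4.0.16 and DESeq2 1.42.0 (R 4.3.3) on rounded counts of 10 or more in both; the rest was done with pandas 2.3.3, matplotlib 3.10.9, Biopython 1.88 and numpy 2.4.6 in Python 3.11.15. The ratio step was tested on simulated data in which both libraries had the same profile apart from a set of changed genes. A shift in composition such as the mitochondrial one seen here was not simulated. All 10 members are named, with other CC chemokines at 1 TPM or more in either library, the highest receptors, the 3 highest regulators, and the gene with most counts between the outermost members of each group. Members and lists were chosen with earlier results of these data known. One item that the rule names is not reported here.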

Additional observations from a re-analysis of the deposited data

How the results depend on the processing

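The members' share of counts was 0.228% with protein-coding genes as denominator and spanned 0.128% to 0.189% when either replicate was left out; 9 members were detected in each library alone, and 8 at a threshold of 5 TPM. By expected counts the mean retained-intron share was 39.6% for Ccl2 and 37.3% for Ccl6, so that the coding form of Ccl6 led; leaving out either replicate gave 25.7% to 36.1% for Ccl2, 52.2% to 62.2% for Ccl6 and 59.4% to 75.7% for Ccl5. The median relative log2 ratio over the 9 members lay between 0.61 (no filter, which moved the median of all genes by -0.27) and 1.006 (pseudocount 0.1), with all 9 above 0 in each setting. With read-based TPM, 6 of 9 mean levels moved by more than the SD, and the order stayed. Rescaling TPM over nuclear-encoded protein-coding genes moved 9 of 9 (Ccl5 from a mean of 784 to 3194). With 2 libraries, leaving 1 out is no check of stability. No paired analysis was possible because the libraries form 1 group. Depth limits Ccl17 and Ccl22 most, and short isoforms rest on few counts.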
